A study of Mus musculus with 8 samples.

Results

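Feedback on the ERK pathway is carried by a small set of genes that the pathway itself switches on. Growth factor receptors such as that for EGF act through Ras, Raf and MEK to phosphorylate ERK. ERK then raises the transcription of dual-specificity phosphatases (Dusp), which remove the phosphates, and of Sprouty and Spred proteins, which act nearer the receptor and at Ras and Raf. Ier3, induced in the same way, instead prolongs ERK activity by acting on the phosphatase PP2A. The 10 genes described here, taken by symbol from a deposited expression table of 18671 genes, were Dusp1, Dusp4, Dusp5, Dusp6, Spry1, Spry2, Spry4, Spred1, Spred2 and Ier3, and all 10 were found. They were compared between mouse liver progenitor cells given a plasmid for GRHL2, a grainyhead family transcription factor of epithelial cells, and cells given a control plasmid.

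The cells were BMEL cells, a bipotential line from mouse embryonic liver, in medium with serum, IGFII, 50 ng/mL of mouse EGF and 10 µg/mL of insulin on collagen. Both groups therefore received EGF, a ligand that activates ERK, throughout. The GRHL2 group (4 samples, plasmid labelled pIGrhl2) was transfected with a construct expressing Flag-tagged human GRHL2 from the EEF1A1 promoter together with enhanced green fluorescent protein, and the control group (4 samples) with the pcDNA3 vector, so that GRHL2 and the fluorescent protein cannot be told apart. RNA was collected at 48 h and sequenced as paired-end reads of 150 bp. Both groups were numbered 1 to 4, and the labels do not state what a number stands for.

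The values are on a log2 scale corrected for transcript length, so a difference of 1 is a doubling, apart from shrinkage in low genes. Levels can be compared between genes only roughly, since the methods describe a length averaged over all transcripts of a gene. Read counts are not part of the table, so the depth behind a value is unknown. Grhl2 itself was higher in the GRHL2 samples, by 1.71 on the log2 scale (SE 0.22, limma adjusted p = 0.00100, n = 4 and 4), with the groups apart, counted on the mouse gene although the plasmid carries the human cDNA. Several epithelial and hepatic markers were high in the control samples (Krt8 15.3, Krt18 14.8, Hnf4a 11.2), with others such as Epcam (6.43), Alb (5.25) and Prom1 (3.97) lower. The 4 leukocyte markers ran from Ptprc (0.90) to Cd14 (8.47), with Cd68 at 6.08 and Csf1r at 4.48, the 5 endothelial markers from Cdh5 (1.23) to Pecam1 (3.33), and the 3 stellate and fibroblast markers from Pdgfrb (-0.23) to Col1a1 (5.22). The summed level of 14 hepatoblast and biliary markers was 16.9 to 17.1 in the GRHL2 samples and 16.7 to 16.9 in the controls, with 6 markers called. The sums were 8.73 to 9.05 and 8.72 to 8.90 for 4 leukocyte markers (0 called), 4.54 to 4.66 and 4.57 to 4.60 for 5 endothelial markers (0 called), and 5.57 to 5.86 and 5.44 to 5.72 for 3 stellate and fibroblast markers (1 called). The part of these markers in the results on the 10 genes was not tested. The values come from bulk RNA, in which fewer cells of a type and less RNA per cell cannot be told apart.

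The upstream regions of 3 phosphatase genes are shown first. With the replicate number as a block one was higher with GRHL2 (Dusp6) and one lower (Dusp1), and Dusp5 moved with Dusp1 between replicates. Promoters of 8 of the 10 genes were taken from RefSeq (GRCm38.p6), and those of Dusp4 and Spry4 were not searched. The 250 bases before each start were searched on both strands for AACCNGTT (grainyhead), TGACGTCA (the cyclic AMP response element, CRE), the CArG box of serum response factor, CCGGAAG (ETS) and TGANTCA (AP-1). Bases -150 to -51 from the RefSeq start are printed 5′ to 3′ on the strand of the gene, with matches in capitals. Dusp6 (chr10:99263081-99263180, plus strand) holds a grainyhead match, Dusp1 (chr17:26508523-26508622, minus strand) a CRE, and Dusp5 (chr19:53528995-53529094, plus strand) a pair of adjacent CArG boxes.
Dusp6: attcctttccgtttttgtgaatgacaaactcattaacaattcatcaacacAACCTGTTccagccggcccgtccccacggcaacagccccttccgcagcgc
Dusp1: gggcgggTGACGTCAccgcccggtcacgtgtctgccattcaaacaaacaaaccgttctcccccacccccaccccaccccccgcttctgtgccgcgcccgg
Dusp5: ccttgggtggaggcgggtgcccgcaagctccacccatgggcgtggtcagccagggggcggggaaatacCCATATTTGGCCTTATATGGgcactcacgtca
The Dusp6 match, AACCTGTT at -100 to -93, was of a kind held by 1.79% of 32851 mouse promoters of the same length. The full palindrome AACCGGTT, which the looser pattern includes, was in 0.116% of promoters and in none of the 8. The CRE of Dusp1 lay at -143 to -136 (1.55% of promoters), and the CArG boxes of Dusp5 at -82 to -73 and -72 to -63 (1.47% of promoters). No ETS match (6.91% of promoters) or AP-1 match (6.75%) was found in these windows. These 3 regions were those with a match among the 8, and a match describes the letters only.

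In the control samples the 10 genes spanned a wide range of levels. Dusp6, the cytoplasmic phosphatase that acts on ERK, was the most abundant at 10.57 ± 0.097 (SD, n = 4), above 91.9% of all genes. Ier3, an immediate early gene, followed at 10.21 ± 0.15 (SD, n = 4). Dusp5, a nuclear ERK phosphatase, stood at 9.10 ± 0.38 (SD, n = 4) and Dusp4, a nuclear phosphatase of ERK, JNK and p38, at 8.91 ± 0.089 (SD, n = 4).
These values show Dusp6 and Ier3 apart from each other and from every gene below them, and the ranges of Dusp5 and Dusp4 overlapping. Spred2 (8.79), Spred1 (8.63) and Dusp1 (8.53), the nuclear phosphatase of p38, JNK and ERK, came next. Spry2 (8.03), Spry1 (6.73) and Spry4 (4.17) closed the order, with Spry4 above only 36.5% of all genes. Among neighbours, Spred1 and Dusp1 overlapped, as did Dusp1 and Spry2. In the GRHL2 samples the order was the same except that the mean of Spry2 (8.25) stood above that of Dusp1 (8.19), with overlapping ranges. Dusp4 and Spred2, and Spred2 and Spred1, also overlapped there.

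**Figure D1:**
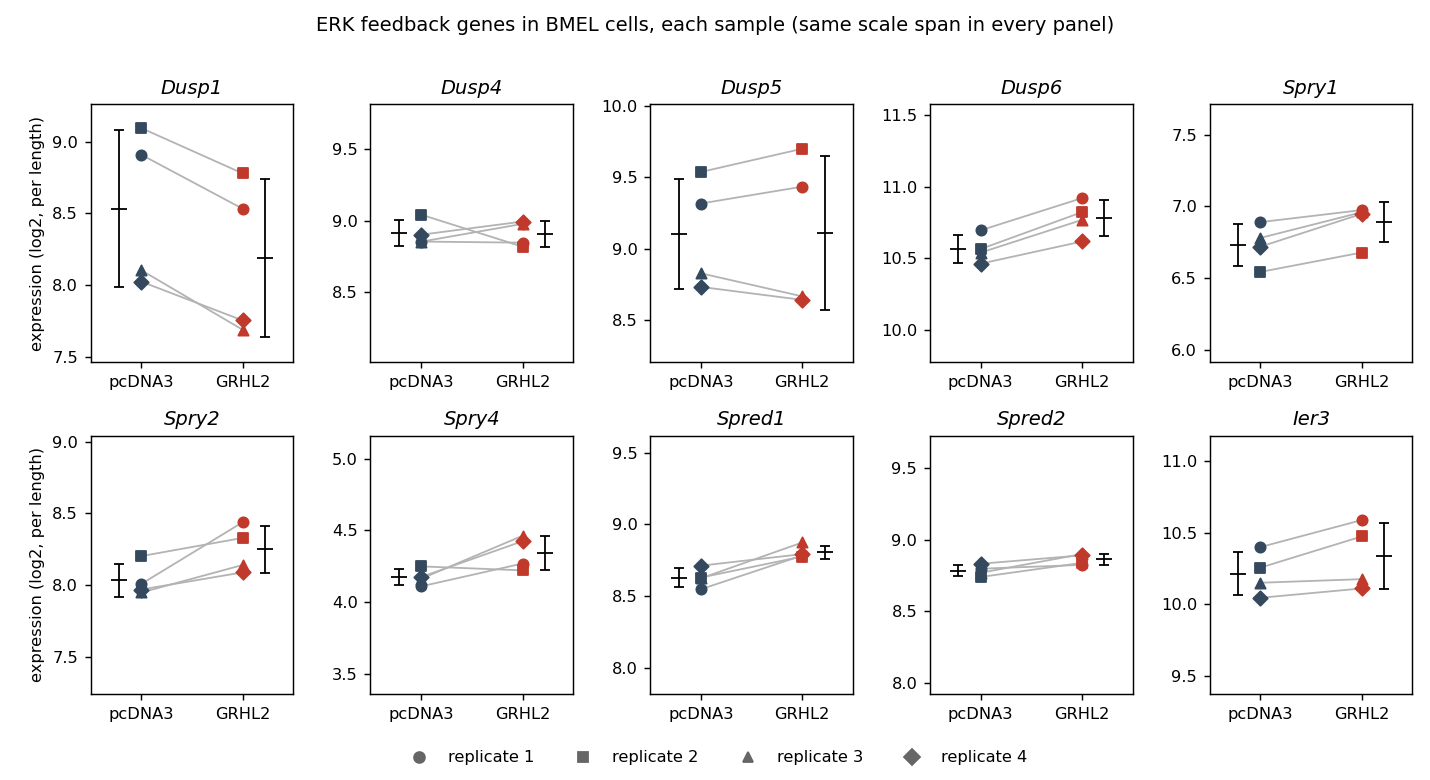
Expression of the 10 genes in each of the 8 samples, on the log2 scale corrected for length. Symbols mark the replicate number, grey lines join samples of the same number, and the black bar and whiskers give the group mean and SD (n = 4). The lines of Dusp1 all slope down and those of Dusp6 all slope up, while replicates 1 and 2 stand far above 3 and 4 for Dusp1 and Dusp5.

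Without regard to the replicate number, 1 of the 10 genes was called higher and 0 lower by limma at an adjusted p under 0.05, when 10.5% of all genes were called higher and 5.91% lower. At an unadjusted p under 0.05, 4 of the 10 were higher and 0 lower, when 18.4% and 12.7% of all genes were. Samples with the same number deviated together from their group means in every pair, and with the number as a block the counts were 6 higher and 1 lower, against 18.2% and 13.9% of all genes. The 6 were Dusp6, Spry1, Spry2, Spry4, Spred1 and Ier3, and the 1 was Dusp1. Dusp4, Dusp5 and Spred2 were called in neither fit. With a block of replicates 1 and 2 against 3 and 4 alone, a split that both groups showed, Dusp6, Spry2, Spry4 and Spred1 were called higher and Dusp1 lower, while Spry1 (adjusted p = 0.166) and Ier3 (0.0953) were not called. The differences were small, with a median log2 fold change of 0.14 over the 10 genes and 0.0066 over all genes. In all 4 same-numbered pairs the GRHL2 sample was the higher for 6 of the 10 genes (27.3% of all genes) and the lower for 1 (21.3% of all genes). When each pair was left out in turn from the blocked fit, Dusp6 and Dusp1 were called in all 4 of the fits, and between 2 and 5 genes were called higher.

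**Figure D2:**
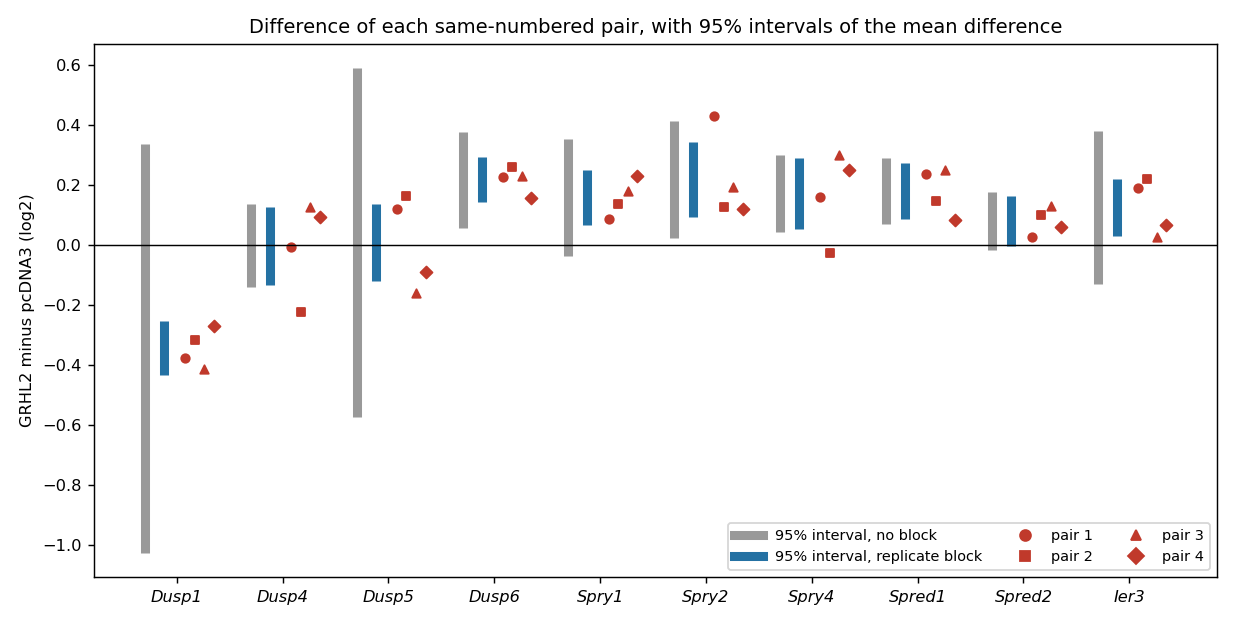
Differences between GRHL2 and pcDNA3 samples for the 10 genes, on the log2 scale. Red symbols are the 4 same-numbered pairs, the grey bar is the 95% interval of the mean difference without the replicate block, and the blue bar is the interval with it. The blocked interval of Dusp1 lies below 0 from -0.43 to -0.26 and that of Dusp6 above 0 from 0.14 to 0.29.

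Of the phosphatases, Dusp6 (GRCm38 chromosome 10, 99263231 to 99267489) was higher with GRHL2 by a modest margin that recurred in every pair. Its levels were 10.92, 10.82, 10.77 and 10.62 in GRHL2 samples 1 to 4 and 10.70, 10.56, 10.54 and 10.46 in the controls. The GRHL2 sample was the higher in all 4 pairs, by 0.15 to 0.26, although the groups overlapped because GRHL2 sample 4 was below control sample 1. The log2 fold change was 0.22 (SE 0.072), or 1.16-fold, with an adjusted p of 0.0679 in limma, and an exact two-sided permutation test of the 8 samples gave p = 0.0571. With the replicate block the SE was 0.033, the 95% interval ran from 1.10-fold to 1.22-fold, and limma's adjusted p was 0.00153, so Dusp6 rose in that fit. Without the block, leaving out GRHL2 sample 4 gave a call (limma adjusted p = 0.0295), and leaving out any other sample did not (0.0566 to 0.159). Over the blocked fits without a pair the adjusted p was 0.00109 to 0.0133.

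Dusp1 (GRCm38 chromosome 17, 26505590 to 26562128) went the other way. Its GENCODE span, on the minus strand, begins at 26562128, upstream of the region printed above from the RefSeq start (26508523 to 26508622). GRHL2 samples 1 to 4 read 8.53, 8.78, 7.69 and 7.75, and the controls 8.91, 9.09, 8.10 and 8.02. Within each group samples 1 and 2 were far above samples 3 and 4, so the groups overlapped widely, yet each GRHL2 sample was below the control of its number, with differences of -0.27 to -0.42. Without the block the log2 fold change was -0.34 with an SE of 0.31 (limma adjusted p = 0.487, 95% interval -1.03 to 0.34). With the replicate block the same difference had an SE of 0.039 and an adjusted p of 0.000399, and Dusp1 fell to 0.787 of the control level (95% interval 0.740 to 0.838). It was called in all 4 blocked fits that left out a pair, with adjusted p between 0.000354 and 0.00461.

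In GENCODE M21 exons of Dusp1, Dusp5 and Spry1 overlap exons of a gene on the other strand (Ergic1, AC137853.2 and Gm42922). The methods of the study describe counting without regard to strand in the union mode of HTSeq. That mode counts a read on exons of both genes for neither, so reads there may be missing from the values. The effect was not tested. Ergic1 was at 11.23 in the GRHL2 and 11.24 in the control samples, with a within-group SD of 0.048, and Gm42922 was at -0.031 and -0.039.

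Dusp5 (GRCm38 chromosome 19, 53529109 to 53542431) moved with Dusp1 between replicates, but it was not called between groups in either fit. It read 9.43, 9.70, 8.67 and 8.64 in GRHL2 samples 1 to 4 and 9.32, 9.54, 8.83 and 8.73 in the controls. The GRHL2 sample was the higher in pairs 1 and 2 (by 0.12 and 0.16) and the lower in pairs 3 and 4 (differences of -0.16 and -0.091). The log2 fold change was 0.0070 (SE 0.26, limma adjusted p = 0.989), and 0.944 was the adjusted p with the block. The blocked 95% interval of the fold ran from 0.919 to 1.10, which bounds the mean difference on this scale. Dusp4 (GRCm38 chromosome 8, 34807297 to 34819894) was likewise not called, at 8.85, 8.82, 8.98 and 8.99 with GRHL2 and 8.86, 9.04, 8.85 and 8.90 in the controls. Its log2 fold change of -0.0038 (SE 0.062, adjusted p = 0.978) had a blocked interval of 0.912-fold to 1.09-fold, and its pairs were split between both directions.

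**Figure D3:**
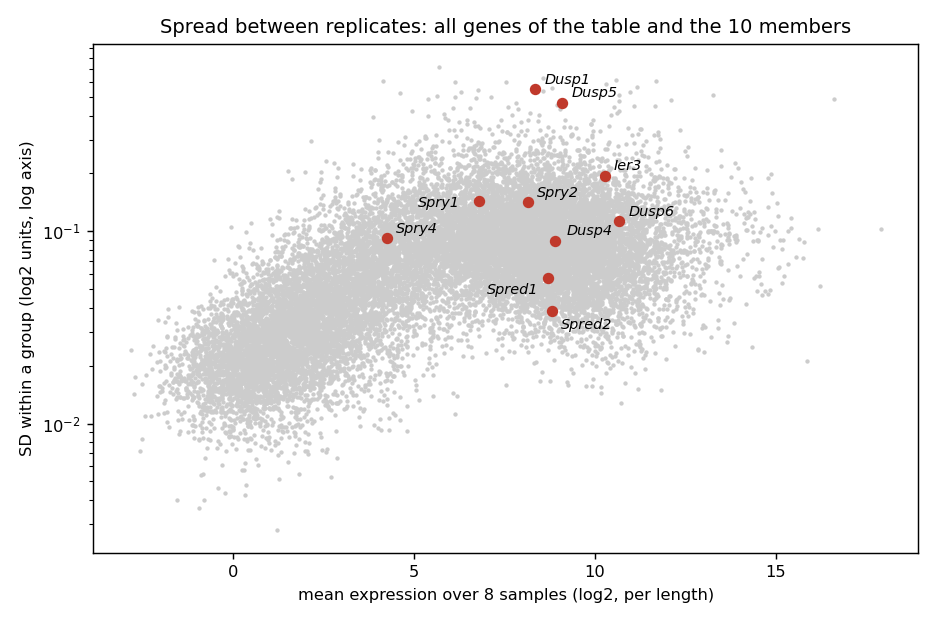
SD between replicates of a group (log2 units, log axis) against mean expression over the 8 samples, for all 18671 genes in grey and the 10 genes in red. Dusp1 (0.549) and Dusp5 (0.467) lie at the upper edge of all genes, and Spred2 (0.039) lies near the lower edge at its level.

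For Dusp1 and Dusp5 the spread between replicates was larger than the difference between the groups. Dusp1 had a within-group SD of 0.549 and Dusp5 one of 0.467, against a median of 0.0662 over all genes, and each was larger than in 99.9% of genes. In both groups replicates 1 and 2 were above replicates 3 and 4, by 0.94 and 0.94 for Dusp1 (GRHL2 and control) and by 0.91 and 0.64 for Dusp5. Ier3 (0.39 and 0.23), Spry2 (0.27 and 0.15) and Dusp6 (0.18 and 0.13) had the same sign with smaller gaps.
Spry1, Spred1 and Spred2 had the opposite sign in both groups, with -0.13 for Spry1 in the GRHL2 samples as the widest gap. Spred2, a Spred family inhibitor of Ras to Raf signalling, had the smallest SD of the 10 at 0.039, larger than in 26.6% of genes. The split of replicates 1 and 2 from 3 and 4 was shared by the groups, no batch is named in the labels, and its source was not tested. After group means were removed, the 8 values of Dusp1 and Dusp5 correlated at 0.983, those of Dusp6 and Ier3 at 0.932 and those of Dusp4 and Spry4 at 0.908. Of the 45 pairs among the 10 genes 26 had a negative coefficient, the strongest being Spry2 with Spred2 (-0.838) and Dusp5 with Spred2 (-0.799). These coefficients are descriptions, since the samples share the replicate split.

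Dusp1 and Dusp5 moved together between replicates, and their difference varied less than either gene. This pair was chosen after its values were seen and is given without a test. Dusp1 minus Dusp5 was -0.90, -0.92, -0.98 and -0.89 in GRHL2 samples 1 to 4 and -0.41, -0.44, -0.73 and -0.71 in the controls. Every GRHL2 sample was below every control sample, with means of -0.92 ± 0.040 and -0.57 ± 0.17 (SD, n = 4 each), so the ratio of Dusp1 to Dusp5 RNA was lower with GRHL2 in these samples. Dusp6 minus Dusp1, a ratio of the main cytoplasmic to a nuclear phosphatase, averaged 2.60 with GRHL2 and 2.03 in the controls. The groups overlapped, and the GRHL2 sample was the higher in all 4 pairs, by 0.43 to 0.64. That direction follows from Dusp6 being higher and Dusp1 lower in each pair. This difference is likewise given without a test and adds no separate result.

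The Sprouty genes, whose products block receptor signalling upstream of ERK, lay above the controls in mean by similar margins. Spry2 (GRCm38 chromosome 14, 105891947 to 105896819) read 8.44, 8.33, 8.14 and 8.09 with GRHL2 and 8.01, 8.20, 7.95 and 7.97 in the controls. The GRHL2 sample was the higher in all 4 pairs, most of all in pair 1 (0.43, against 0.12 to 0.19 in the others), and the groups overlapped. The log2 fold change was 0.22 (SE 0.087, limma adjusted p = 0.119, and 0.0167 with the block). Without pair 1 the blocked difference was 0.15 with an adjusted p of 0.0619, and without pair 3 it was 0.23 with 0.0515.

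Spry1 (GRCm38 chromosome 3, 37639947 to 37644598) read 6.97, 6.68, 6.96 and 6.95 with GRHL2 and 6.89, 6.54, 6.78 and 6.72 in the controls. Replicate 2 was the lowest of its group in both, and each GRHL2 sample was above its control by 0.084 to 0.23. Spry1 had a log2 fold change of 0.16 (SE 0.087), with a limma adjusted p of 0.253 without and 0.0168 with the block. The blocked call was lost without pair 3 (adjusted p = 0.0678) and without pair 4 (0.0829). Spry4 (GRCm38 chromosome 18, 38586247 to 38601415) was the lowest expressed, at 4.27, 4.22, 4.46 and 4.42 with GRHL2 and 4.11, 4.25, 4.16 and 4.17 in the controls. It was higher in 3 of 4 pairs, the difference in pair 2 being -0.028. For Spry4 the log2 fold change was 0.17 (SE 0.057, limma adjusted p = 0.0703, and 0.0356 with the block). Its call rested on all pairs but pair 2: without pair 1, 3 or 4 the blocked adjusted p was 0.100 to 0.149. The transformation used for the table shrinks differences of low genes such as Spry4.

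Of the Spred genes, which hold back Ras and Raf at the membrane together with neurofibromin, Spred1 was the one member of all 10 called with and without the block. Spred1 (GRCm38 chromosome 2, 117121374 to 117182279) read 8.78, 8.77, 8.87 and 8.79 with GRHL2 and 8.55, 8.63, 8.62 and 8.71 in the controls. All GRHL2 samples were above all controls, a separation seen in 1 of the 10 genes and in 14.3% of all genes in this direction (0 of the 10 and 9.47% of all genes in the other). Spred1 rose by 0.18 (SE 0.049), or 1.13-fold, with a limma adjusted p of 0.0356, of 0.0114 with the block, and an exact two-sided permutation p of 0.0286, the smallest that 4 against 4 samples can give. The unblocked call was lost without GRHL2 sample 1 (adjusted p = 0.0669), 3 (0.0938) or 4 (0.0680) and without control sample 1 (0.103), 2 (0.0585) or 3 (0.0777). The blocked call was lost without pair 1 (0.0636) or pair 3 (0.0606).

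The genes whose values over the 8 samples were most like those of Spred1, among 10964 with a mean of at least 5, were Gtpbp3 (Pearson's r = 0.977) and Frmd8 (0.975). Spred2 (GRCm38 chromosome 11, 19924375 to 20024026) read 8.83, 8.84, 8.90 and 8.89 with GRHL2 and 8.80, 8.74, 8.77 and 8.83 in the controls. Each GRHL2 sample was above the control of its number, but GRHL2 sample 1 and control sample 4 both read 8.83 and the groups overlapped. The log2 fold change of 0.079 (SE 0.043) was not called (limma adjusted p = 0.253, and 0.136 with the block), and its blocked interval ran from 0.997-fold to 1.12-fold.

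Ier3 (GRCm38 chromosome 17, 35821684 to 35822923) read 10.59, 10.47, 10.17 and 10.11 with GRHL2 and 10.40, 10.26, 10.15 and 10.04 in the controls. Pairs 1 and 2 differed by 0.19 and 0.22 and pairs 3 and 4 by 0.025 and 0.065, all with the GRHL2 sample higher. Its log2 fold change was 0.12 (SE 0.11, limma adjusted p = 0.503), and the blocked adjusted p of 0.0492 was just inside the threshold. Without pair 1, 2 or 4 it was 0.0846 to 0.195.

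**Figure D4:**
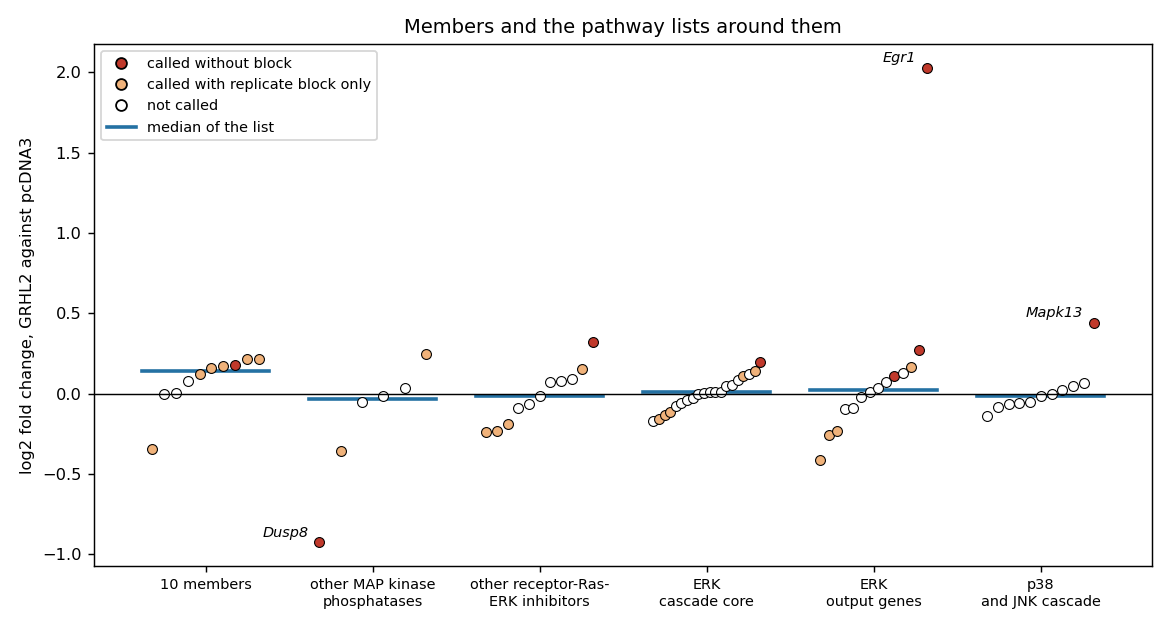
Log2 fold change of GRHL2 against pcDNA3 for the 10 genes and for each gene of 5 lists of the surrounding pathway. Fill gives the limma call without the block, with the block only, or neither, and the blue line is the median of each list. The medians of the 5 lists lie between -0.033 and 0.023, and Egr1 (2.03) and Dusp8 (-0.92) stand far from the rest.

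Counts in the lists of the surrounding pathway stand beside 10.5% of all genes called higher and 5.91% lower without the block, and 18.2% and 13.9% with it. Of 6 other MAP kinase phosphatases measured (Dusp2, Dusp7, Dusp8, Dusp9, Dusp10 and Dusp16), 0 were called higher and 1 lower without the block, with 1 higher and 2 lower at an unadjusted p under 0.05, and a median log2 fold change of -0.033. The 1 was Dusp8, a phosphatase of JNK and p38, at 5.82, 6.15, 5.53 and 5.58 with GRHL2 and 6.70, 7.00, 6.56 and 6.52 in the controls. All GRHL2 samples of Dusp8 were below all controls, and it fell by 0.92 (SE 0.14, limma adjusted p = 0.00243), a larger change than in any of the 10 feedback genes. With the block Dusp16 (-0.36, adjusted p = 0.000228), also a JNK and p38 phosphatase, was lower too and Dusp9 (0.25, adjusted p = 0.0172), which acts on ERK, was higher, both named after their values were seen.

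Of 11 measured inhibitors of receptors, Ras or Raf other than the members, 1 was called higher and 0 lower (2 lower at an unadjusted p under 0.05), with a median of -0.015. This was Il17rd, which encodes Sef, an inhibitor of FGF and ERK signalling, at 4.34 to 4.47 with GRHL2 and 3.98 to 4.25 in the controls, and it rose by 0.32 (SE 0.062, limma adjusted p = 0.00748). With the block 2 were higher and 3 lower. The added higher gene was Rasal2, and the 3 lower were Errfi1 (-0.24), the EGF receptor inhibitor that ERK also induces, Nf1 (-0.19), which encodes neurofibromin, and Cblb (-0.23), which marks receptors for degradation. Errfi1 thus differed in sign from the Sprouty genes, at 9.76, 9.97, 9.48 and 9.43 with GRHL2 and 9.97, 10.24, 9.72 and 9.66 in the controls, although both belong to feedback at the receptor.

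In the core of the cascade, from Grb2 to the RSK kinases, 1 of 20 genes was called higher and 0 lower (1 lower at an unadjusted p under 0.05), with a median of 0.0090. The 1 was Ksr1, a scaffold that holds Raf, MEK and ERK together, which rose by 0.19 (SE 0.048, limma adjusted p = 0.0225), from 6.58 to 6.70 in the controls to 6.76 to 6.91. That call was lost without GRHL2 sample 1, 3 or 4 or control sample 1 (adjusted p = 0.0523 to 0.0685). The block added Shc1 and Mapk3 (which encodes ERK1) as higher and Gab1 and Ptpn11 as lower, none by more than 0.16.

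Among 14 other genes that ERK is known to induce, 3 were called higher and 0 lower (1 lower at an unadjusted p under 0.05), with a median of 0.023. Etv4, an ETS factor often induced together with Dusp6 and Sprouty genes by FGF, rose by 0.27 (SE 0.047, limma adjusted p = 0.00428), from 8.80 to 8.93 in the controls to 9.08 to 9.18. Etv1 rose by 0.11 (SE 0.022, adjusted p = 0.00836) at a very low level (1.49 to 1.67 over the 8 samples), and Etv5 was higher by 0.16 with the block only (adjusted p = 0.0177). Egr1, an immediate early transcription factor, rose by 2.03 (SE 0.27, limma adjusted p = 0.00124), while no feedback gene was higher by more than 0.22. With the block Fosl1 (-0.41), Epha2 (-0.26) and Fos (-0.23) were lower.

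In the parallel p38 and JNK cascades 1 of 11 genes was called higher and 0 lower (0 lower at an unadjusted p under 0.05 too), with a median of -0.013. The 1 was Mapk13, the p38 delta kinase, which rose by 0.44 (SE 0.033, limma adjusted p = 7.22e-05), from 4.25 to 4.30 in the controls to 4.65 to 4.75 with GRHL2. Of the phosphatases named above as acting on these kinases, Dusp8 was lower in both fits and Dusp1 and Dusp16 with the block only, while Dusp4 was called in neither. Dusp10, also a phosphatase of p38 and JNK, had a log2 fold change of -0.013 (SE 0.11) and was called in neither fit.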

How the data were processed

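RNA of 8 BMEL samples, 4 per group by the plasmid in the labels, was sequenced by the authors. The submitters' processing notes name HISAT2 2.2.1, HTSeq 0.9.1 and DESeq2 1.40.2 and the builds mm10 and GRCm39, without roles. The methods describe exon counts without strand and the removal of genes with few reads. The deposited table is named for FPKM, but its values (-2.85 to 18.0) are on a log2 scale: adding log2 length removed the dependence of the floor on length, as for regularised log2 counts less log2 length. That transformation shrinks differences of low genes. Raw counts and depth were not used here, so no count test was run. The values were fitted for all 18671 genes with limma 3.58.1 (R 4.3.3) with a trend of variance on level and no filter, p-values were adjusted by the Benjamini-Hochberg method, and a gene was called below 0.05. All calls in the text are limma calls unless named otherwise. The script was tested on simulated data. The study reports 4 biological replicates per group.

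The replicate numbers were treated as pairing the samples, from the data: deviations from the group means correlated at 0.474, 0.565, 0.549 and 0.645 between same-numbered samples, and differently numbered samples correlated at 0.344 to 0.602 within replicates 1 and 2 or 3 and 4 and at -0.611 to -0.399 across these sets. The data thus show a split into 2 sets as much as a pairing by number, and a fit with the sets as the block was added. Blocked values stand beside a result where the block changes the call.

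The 10 genes, the lists and the markers were chosen with earlier results of these data known. Named genes were all members, Grhl2, up to 4 called genes per pathway list with the groups apart and the 3 genes most like each called member. Some results under this rule are not reported here. Gene positions are from GENCODE M21 (GRCm38). Alternatives were other scalings, each sample left out, no trend, a minimum mean of 5, a pseudocount of 1 and a minimum log2 fold change of 0.5. A GC correction, leaving out pairs and the block of sets were added after the data were seen. The table holds no columns of the authors' own comparisons.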

Additional observations from a re-analysis of the deposited data

Results flagged for a closer look

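Of 36 groups of 4 samples examined for a sample far from the rest, 1 held one, when chance gives about 1 in 20 groups. Spry1 in GRHL2 sample 2 was 6.68, and the nearest of the other GRHL2 samples was 6.95, a gap of 0.911 of the range of the group. Control sample 2 was likewise the lowest of its group, at 6.54.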

How the results depend on the processing

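All values of the 10 genes rest on 4 samples a group, an unknown depth and a scale that shrinks low genes. Over 21 alternatives (20 for Spry4), Dusp6, Spry1, Spry2, Spry4, Spred1, Spred2 and Ier3 kept a positive and Dusp1 a negative difference. Counts of all genes called higher (1957) were 3064 with equal upper quartiles, 3396 with the replicate block, 3157 with the block and a GC correction, 715 with a mean of at least 5, 199 with a log2 fold change of at least 0.5, and 1326 to 3167 when a sample or a pair was left out. Those called lower (1104) were 2589 with the block, 2751 with block and GC correction, 70 with the minimum fold change and 690 to 2661 with a sample or pair left out. The higher share of calls was 63.9% as deposited, 75.9% with equal upper quartiles, 77% with equal sums and 58.4% with the GC correction, and the median log2 fold change moved by under 0.1. Members called higher (1) were 3 with equal upper quartiles, 2 with equal sums, 6 with the block, 5 with block and GC correction (Ier3 then not called), 0 with the minimum fold change, and 0 to 5 with a sample or pair left out. Members called lower (0) were 1 with the block, 1 with block and GC correction and 0 to 1 with a sample or pair left out. Dusp6 was also called with equal upper quartiles (adjusted p = 0.0419) and equal sums (0.0254), and Spry4 with equal upper quartiles (0.0322) and without GRHL2 sample 2 (0.0286).

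With the block, the other phosphatases were 1 higher and 2 lower, the other inhibitors 2 and 3, the cascade core 3 and 3 and the output genes 4 and 3. With block and GC correction these were 1 and 2, 2 and 3, 2 and 3, and 4 and 4, and in the p38 and JNK cascade 1 was lower. With the block of replicates 1 and 2 against 3 and 4, all genes were 3270 higher and 2478 lower, members 4 and 1, the other phosphatases 1 and 2, the inhibitors 2 and 3, the core 3 and 2 and the output genes 4 and 3. With equal upper quartiles and with equal sums alike, 2 other phosphatases and 2 other inhibitors were higher. With a mean of at least 5, 0 inhibitors and 0 p38 and JNK genes were higher, with the minimum fold change 0 inhibitors, 0 core genes, 1 output gene and 0 p38 and JNK genes were, with the GC correction 0 core genes were higher, and without the variance trend 1 core gene was lower. Leaving out a sample or a pair gave 0 to 1 other phosphatases higher and 1 to 2 lower, 1 to 2 inhibitors higher and 0 to 4 lower, 0 to 4 core genes higher and 0 to 2 lower, 3 to 5 output genes higher and 0 to 5 lower, and 1 p38 and JNK gene higher and 0 to 1 lower. Dusp4 changed sign with equal upper quartiles (0.019) and equal sums (0.020), and ranged from -0.046 to 0.069 with a sample or pair left out. Dusp5 changed sign with the GC correction, alone and with the block (-0.029 in both), and ranged from -0.19 to 0.16 with a sample or pair left out. The cause was not tested. The GC correction, the omission of pairs and the block of 2 sets were chosen after the data were seen.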
